A study of Danio rerio with 4 samples.

Results

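The transcriptome of *romeharsha* (*rhs*) mutant zebrafish was compared with that of their siblings at 48 hpf. Transcripts were rows of the deposited table with an estimated count of at least 100 in both *rhs* libraries, and 14212 of 27423 rows qualified. Another 196 rows reached 100 in the mutant library alone, 407 in the sibling library alone, and 12608 in neither. The study sequenced pooled whole embryos of 2 epidermal mutants to find genes linked to the retention of rounded-up peridermal cells. The 4 libraries, 1 per group, were *rhs* mutants (homozygous), *rhs* siblings (heterozygous and homozygous wild-type embryos together), *goosepimples* (*gsp*) mutants, homozygous for a mutation in *myo5b*, and *gsp* siblings of the same mixed kind. Mutants were sorted from siblings at 43 hpf, and the labels give 20 embryos per group from 3 clutches per line, while the paper's methods give a larger number. The gene mutated in *rhs* is not known, which leaves that line without a targeted gene to check.

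At 48 hpf the zebrafish embryo still lives on its yolk. Yolk lipid is packed into lipoproteins by the yolk syncytial layer, a multinucleate tissue on the yolk surface, and both this layer and the young liver make apolipoproteins and plasma proteins. In the retina, progenitors have given rise to ganglion cells first, and photoreceptors and bipolar cells are starting to express the proteins of their mature function. Fast muscle is contracting and neurons are making their synapses. The *gsp* comparison was used as a reference for what the *rhs* mutant did not share with a mutant that has a similar epidermal defect.

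Library totals lay between 106188690 and 118680429, and between 14408 and 14680 rows reached 100 in each library. The median *rhs* ratio of mutant to sibling before centring was 0.872, which is -0.20 on the log2 scale. For *gsp* it was 0.927. The *rhs* mutant over the *gsp* sibling had a median of -0.11 on the log2 scale. Unless called unscaled or scaled otherwise, each ratio was divided by the median of its own comparison. Thus "higher" and "lower" are relative to the median transcript of that comparison. A call is a centred ratio past 1.5-fold. With 1 library per group there is no replicate check and no test, and the intervals given are exact Clopper-Pearson intervals at a level of 95%, which cover counting error only. In pooled whole embryos, fewer cells of a type and less RNA per cell cannot be told apart. Of the kept rows, 326 were at the floor value of 1 in both *gsp* libraries, and 373 rows kept in *gsp* were at the floor in both *rhs* libraries. Levels were therefore compared within a line first. The *gsp* sibling was used as another control where stated.

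In *rhs* mutants 1430 transcripts (10.1% of 14212) were higher and 686 (4.83%) were lower past 1.5-fold. The split depended on the scaling. Without centring 904 were higher and 1685 lower, and after division by the library total 1057 were higher and 1276 lower. Past 2-fold, 602 (4.24%) were higher and 81 (0.57%) lower. The *gsp* comparison gave 943 higher (6.52% of 14461) and 402 lower (2.78%). Split by level into 5 equal bins, the rows of the lowest bin were lower in 9.46% of cases and those of the highest bin in 1.58%, while the shares of higher calls were 11.9% and 10.24%. Split into 5 by genomic span, the longest rows had a median log2 ratio of -0.06 in *rhs* and 0.10 in *gsp*. The shortest had 0.02 and -0.09. How far span bears on the differences between gene lists was not tested. Rows whose smaller value lay between 100 and 110 numbered 124 with a median log2 ratio of -0.12, and those between 90 and 100 numbered 131 with a median of -0.08.

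The higher and the lower transcripts differed in how far the *gsp* mutant showed them too. Among 13633 rows with at least 100 in all 4 libraries, 1326 were higher in *rhs*, and 600 of these (4.4% of 13633) were higher in *gsp* as well, which was 45.2% of the *rhs* list and 69.7% of the 861 higher in *gsp*. Of 640 that were lower in *rhs*, 40 (0.293% of 13633) were lower in *gsp* as well, 6.25% of the *rhs* list and 11.2% of the 357 lower in *gsp*. Past the fold in *rhs* and within it in *gsp* were 710 higher transcripts (5.21%) and 581 lower ones (4.26%). Against both siblings, the *rhs* mutant was lower past 1.5-fold for 397 of 13700 transcripts (2.90%) and higher for 871 (6.36%). Both ratios use the same *rhs* mutant library, so they are not independent checks. The standard deviation of the centred log2 ratio was 0.753 for *gsp* sibling over *rhs* sibling. It was 0.507 for *rhs* mutant over *rhs* sibling, so the 2 siblings differed more from each other.

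**Figure D1:**
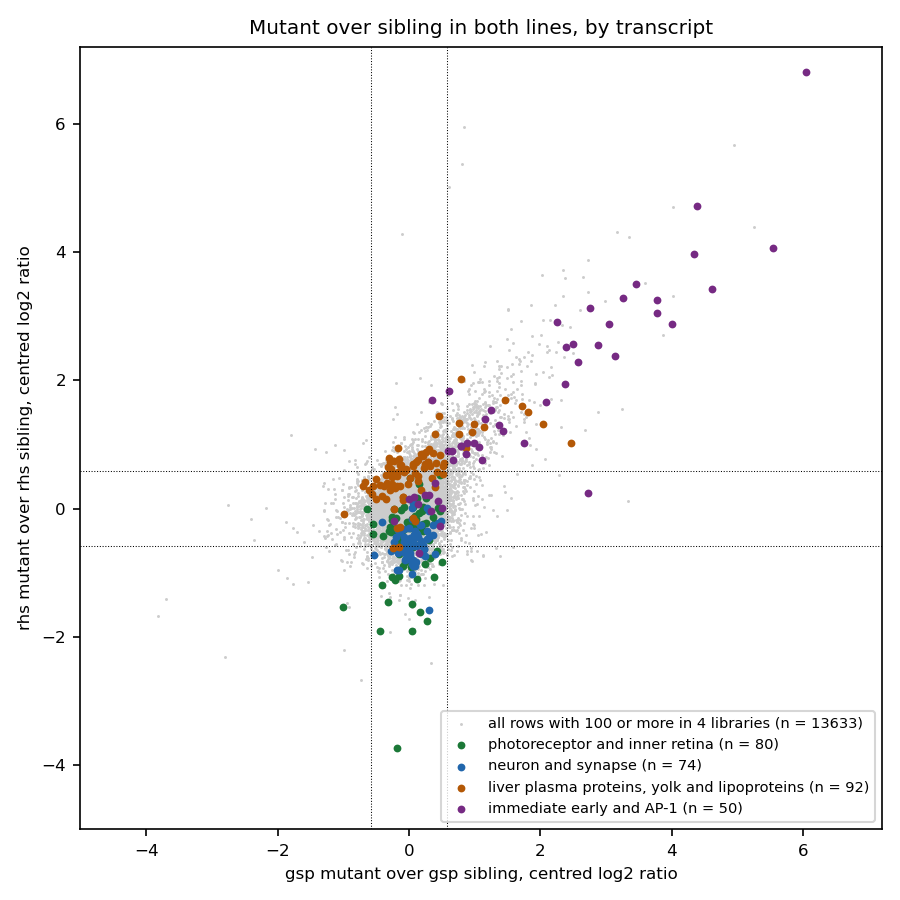
Each point is 1 transcript with at least 100 in all 4 libraries (n = 13633), with the centred log2 ratio of mutant to sibling in *gsp* on the x axis and in *rhs* on the y axis; dotted lines mark 1.5-fold. Immediate early genes lie along the diagonal, while retinal and neuronal genes lie low in *rhs* and near 0 in *gsp*.

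Of all 32 gene lists, the synapse list had the lowest median in *rhs* and the immediate early list the highest. For the immediate early and AP-1 genes, 37 of 50 kept members were higher (74%, against 10.1% of all kept rows). The median log2 ratio was 1.26, against 1.2 in *gsp*. *fosl1*, an AP-1 subunit, went from 170 in *rhs* siblings to 16665 in mutants. Its *gsp* values were 200 and 12227. The inflammation and matrix protease genes had 24 of 37 members higher (64.9%) and a median of 1.01, against 0.86 in *gsp*. These 2 lists gave similar medians in the 2 lines.

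**Figure D2:**
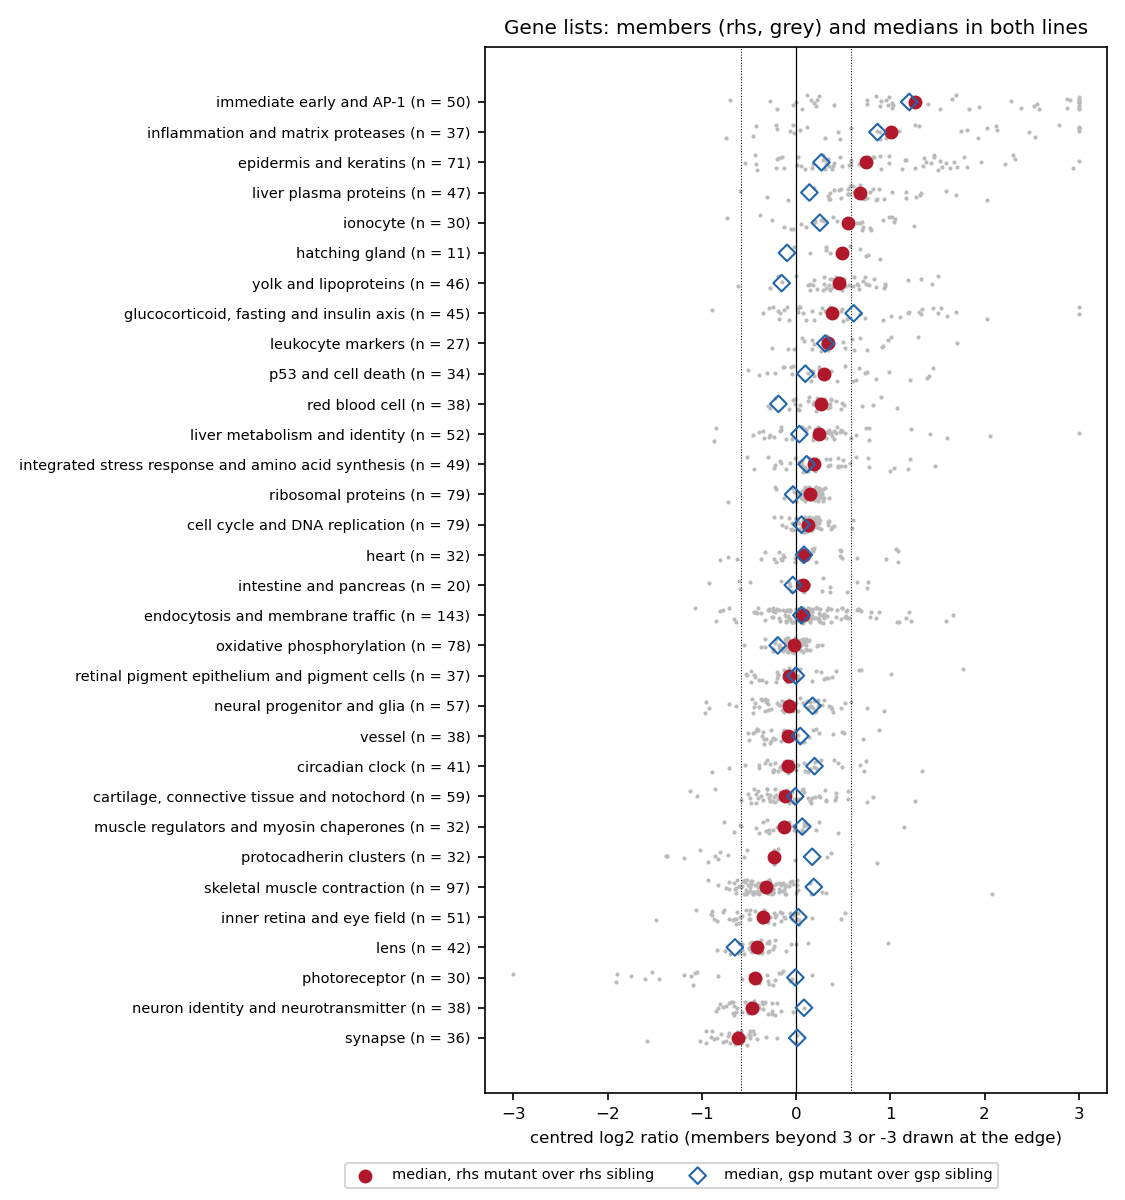
Centred log2 ratios of the members of 32 gene lists in *rhs* (grey points) with the list medians in *rhs* (filled circles) and *gsp* (open diamonds); dotted lines mark 1.5-fold. The synapse, neuron, photoreceptor and inner retina medians are below 0 in *rhs* and near 0 in *gsp*, and the skeletal muscle median is below 0 in *rhs* and above 0 in *gsp*.

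A photoreceptor gene, *gnb3a*, had the lowest ratio of all kept transcripts. Of 70 rows of this list in the table, 30 were kept. Of these, 13 were lower (43.3%, against 4.83% of all kept rows) and 0 higher. The median was -0.44 against -0.01 in *gsp*. *gnb3a*, which encodes a G protein β subunit (danRer7 chromosome 16, 13772557 to 13799766), had an estimated count of 188 in *rhs* mutants and 2890 in *rhs* siblings. The *gsp* libraries had 4750 in mutants and 5835 in siblings. The *rhs* mutant was thus the low library among the 4, and the *rhs* ratio was 13.4-fold lower (11.6 to 15.6). *crx*, a homeobox factor that drives photoreceptor genes (chromosome 5, 38532904 to 38536605), had 2014 in mutants and 8712 in siblings, 3.77-fold lower (3.59 to 3.96). In *gsp* it had 13911 and 14592, and the ratio was 1.03.

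Other regulators of photoreceptor fate were low with *crx*. *otx5*, a relative of *crx* that acts in retina and pineal gland, had 1140 in *rhs* mutants and 3983 in siblings, against 6038 and 5766 in *gsp*. *six7*, a homeobox factor needed for green cone opsin expression in zebrafish, had 552 and 2133, against 2834 and 2531. *nr2e3*, a nuclear receptor of rod precursors, had 816 and 1997, against 3161 and 3137. All of these were lower past 2-fold in *rhs* and within 1.5-fold in *gsp*. In 3 phototransduction genes values increased from *rhs* mutants through *rhs* siblings and *gsp* mutants to *gsp* siblings. *rho*, rod opsin, had 497 and 1234 in *rhs* mutants and siblings, against 2155 and 2696, and was 2.17-fold lower (1.95 to 2.41). *pde6g*, the inhibitory subunit of the rod phosphodiesterase, had 1859 and 4469, against 5082 and 6540. *rcv1*, a recoverin, had 649 and 2036, against 2439 and 3264. Not in this order, and within 1.5-fold in *rhs*, were the more widely expressed β subunits *gnb1a* (19616 and 19981 in *rhs*) and *gnb1b* (7241 and 8705). The cone opsins were mostly under the minimum. *opn1sw1*, the ultraviolet opsin, had 15 in *rhs* mutants and 49 in siblings, and *opn1mw1*, a green opsin, had 9 and 20.

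The photoreceptor level also differed between the siblings. The median log2 ratio of *gsp* sibling to *rhs* sibling over the list was 0.60, so the *rhs* mutant was lower still against the *gsp* sibling, with a median of -1.40. Of the 30 kept members 13 were lower past 1.5-fold than both siblings, against 2.90% of all rows compared with both. *aanat2*, which makes melatonin precursor in pineal photoreceptors, had 175 in *rhs* mutants and 248 in siblings, but 2595 and 2771 in *gsp*. This gene separated the lines rather than mutant from sibling. What sets the difference between the siblings was not tested.

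**Figure D3:**
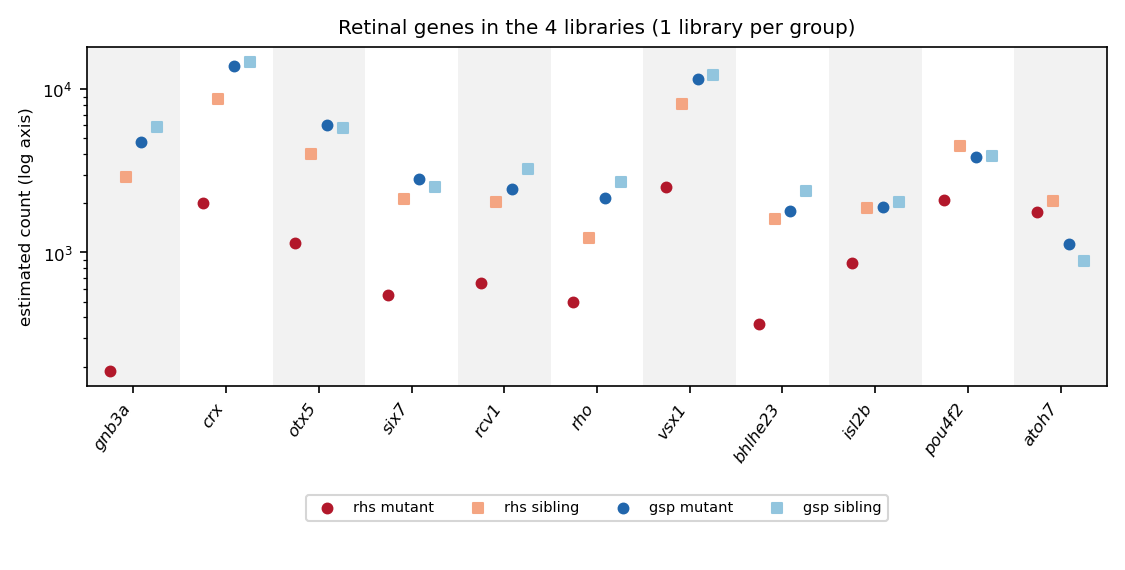
Estimated counts (log axis) of 11 retinal genes in the 4 libraries, 1 point per library. From *gnb3a* to *pou4f2* the *rhs* mutant is the lowest of the 4, while *atoh7*, a gene of retinal progenitors, has similar values in *rhs* mutants and siblings.

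Bipolar and ganglion cell genes were lower as well. In the list of inner retina and eye field genes 17 of 51 kept members were lower (33.3%, against 4.83% of all kept rows) and 0 higher. The median was -0.35 against 0.02 in *gsp*. The *rhs* mutant was lower than both siblings for 14 of 50, against 2.90% of all rows compared with both. *vsx1*, a homeobox factor of bipolar cells, had 2523 in *rhs* mutants and 8123 in siblings, 2.81-fold lower (2.69 to 2.94), against 11619 and 12140 in *gsp*. *bhlhe23*, a bHLH factor of bipolar cells in the mouse, is not in this list and was named for its low ratio. It had 367 and 1599, against 1795 and 2370, which was 3.8-fold lower in *rhs* (3.39 to 4.27). *isl2b* and *pou4f2*, transcription factors of ganglion cells, were 1.87-fold (1.73 to 2.03) and 1.86-fold lower (1.77 to 1.96), with 867 and 1863 for *isl2b* and 2105 and 4495 for *pou4f2*. *atoh7*, a gene of retinal progenitors needed for ganglion cell formation, was near the median transcript, with 1760 in *rhs* mutants and 2077 in siblings. It had 1133 and 882 in *gsp*, and the ratio of the *rhs* mutant to the *gsp* sibling was 2.16, so its place depended on the control. *mab21l2*, an eye field gene, had 16083 and 22640 and was within 1.5-fold.

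Other genes of the retina that the lists did not hold were also among the lowest. *samd7*, a photoreceptor chromatin protein in the mouse, had 417 and 1082 in *rhs*, against 1802 and 1492 in *gsp*. *prom1b*, a prominin, had 389 and 1237, against 1258 and 1348. *gng13b*, a G protein γ subunit found in ON bipolar cells of the mouse, had 1404 and 4338, against 5152 and 6141. *syt5b*, a synaptotagmin, had 405 and 1704, against 2602 and 2685. In all of these the *rhs* mutant was the lowest library. In the list that joins the retinal pigment epithelium with the body pigment cells, 0 of 37 kept genes were lower and the median was -0.07. The 4 higher ones (10.8%) were close to the 10.1% of all kept rows. *rpe65a*, a visual cycle enzyme of the pigment epithelium, had 441 and 702, 1.39-fold lower (1.23 to 1.57), and its ratio to the *gsp* sibling was 0.581. *pmela*, a melanosome fibre protein, had 39903 and 47472. *pnp5a*, a purine nucleoside phosphorylase, had 38323 and 12911, against 20928 and 15008 in *gsp*.

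The lens differed from the retina, since it was low in both lines. Its median was -0.41 in *rhs* with 5 of 42 members lower (11.9%, against 4.83% of all kept rows). In *gsp* the median was -0.65 with 27 of 42 lower, against 2.78% of all rows kept in *gsp*. *crybb1l2*, a β crystallin and the most abundant member, had 104314 and 146337 in *rhs*, against 93294 and 140019 in *gsp*. *hsf4*, a heat shock factor of lens fibres, had 405 and 828, against 324 and 642. *crybb3* stood apart, with 355 and 208, 1.96-fold higher (1.64 to 2.33).

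Genes of neurons and synapses, which retina, brain and spinal cord share, were lower too. Of 38 kept genes of neuron identity and transmitter synthesis, 37 were under the median transcript. Past 1.5-fold, 13 were lower (34.2%, against 4.83% of all kept rows) and 0 higher. The median was -0.47 against 0.08 in *gsp*. For synapse genes 21 of 36 were lower (58.3%) and 0 higher, with a median of -0.61 against 0.01. The siblings were closer to each other for these lists (-0.14 and -0.08 for *gsp* sibling over *rhs* sibling), and against the *gsp* sibling the *rhs* medians were -0.37 and -0.55. Lower than both siblings were 7 of 38 neuron and 13 of 36 synapse genes, against 2.90% of all rows compared with both.

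*gad2*, which makes GABA, had 1723 in *rhs* mutants and 3550 in siblings, 1.80-fold lower (1.70 to 1.90), against 2595 and 2677 in *gsp*. Markers of axons and of neuronal RNA regulation were low to a like degree. *mapta*, a tau of axonal microtubules, had 7444 and 14902, against 11663 and 13076. *elavl4*, an RNA-binding protein of postmitotic neurons, had 8183 and 16100, against 12472 and 13651. Genes of different transmitters were low together against the *rhs* sibling. *slc17a6a*, a vesicular glutamate transporter, had 871 and 1613, against 1233 and 1312. *th*, the dopamine-synthesis enzyme tyrosine hydroxylase, had 176 and 338, against 278 and 254. *scg3*, a secretogranin of dense-core vesicles, had 2698 and 5513, against 6646 and 6666. Against the *gsp* sibling the *rhs* mutant ratio was within 1.5-fold for *gad2* (0.696), *slc17a6a* (0.719) and *th* (0.752). It was past 1.5-fold for *mapta* (0.616), *elavl4* (0.649) and *scg3* (0.438). The machinery of vesicle release and the receptors on the other side of the synapse were both represented. Among synapse genes *stxbp1b*, a partner of syntaxin in vesicle release, had 174 and 598, 2.99-fold lower (2.53 to 3.57), against 1081 and 948. *glra1*, a glycine receptor subunit, had 141 and 314 and was 1.94-fold lower (1.59 to 2.39). *vamp2*, a vesicle SNARE, had 1100 and 2355, against 1728 and 1742, and its ratio to the *gsp* sibling was 0.684, within 1.5-fold. The most abundant members lay within 1.5-fold on the low side: *snap25a* had 9840 and 15817, *stxbp1a* 7896 and 13228, and *stmn1b*, an early neuronal gene, 30178 and 49526.

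Neural progenitor and glial genes had a median of -0.08, near the median transcript. Of 57 kept, 5 were lower (8.77%) and 2 higher (3.51%), against 4.83% and 10.1% of all kept rows. *sox2*, a progenitor factor, had 8591 and 10396, and *gfap*, of radial glia, had 21479 and 25213, a ratio within 1.5-fold in both cases. The 5 lower members included *neurod*, a bHLH factor of newborn neurons (5086 and 11101, against 12198 and 12460), *neurod6b* (1243 and 2773) and *pax6b* (2678 and 5038). The 2 higher were *atoh1a* and *atoh1b*, bHLH factors of hindbrain and hair cell progenitors. *atoh1a* had 1724 and 1034 in *rhs*, against 725 and 759 in *gsp*, and was 1.91-fold higher (1.77 to 2.07). *atoh1b* had 2621 and 1779, against 918 and 1057. The genes of cell cycle and DNA replication had a median of 0.13. Of 79 kept, 2 were higher (2.53%, under the 10.1% of all kept rows) and 0 lower.

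**Figure D4:**
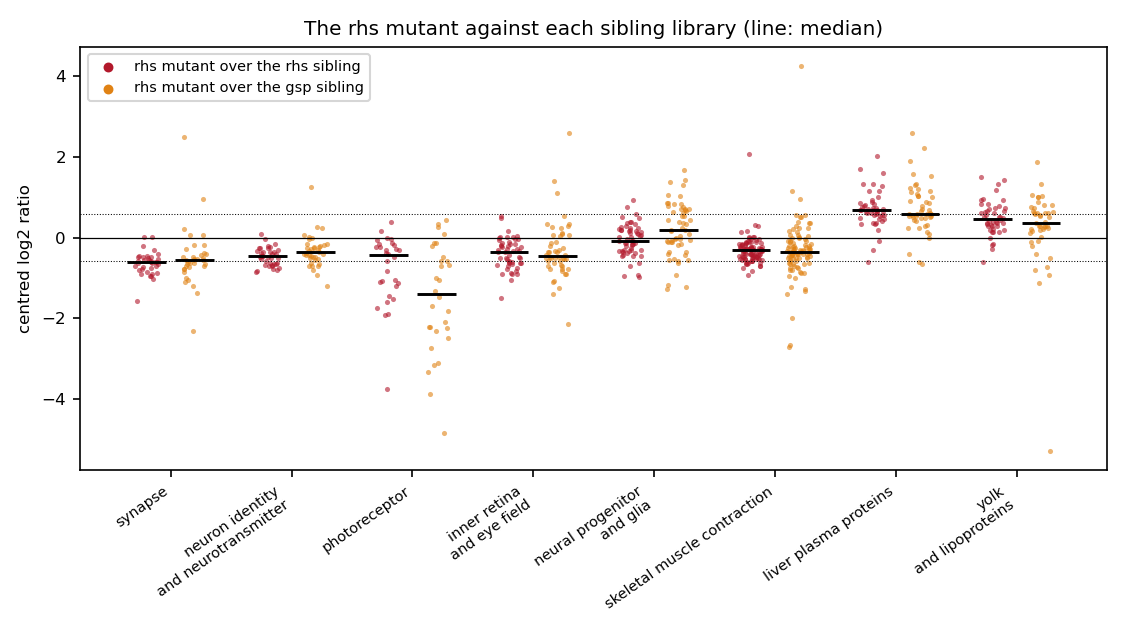
Centred log2 ratios of the *rhs* mutant over the *rhs* sibling and over the *gsp* sibling for the members of 8 lists; black lines are medians and dotted lines mark 1.5-fold. The synapse and neuron medians are below 0 and the liver plasma protein and yolk medians above 0 against both controls, while the progenitor median changes sign from -0.08 to 0.19. Both ratios use the same *rhs* mutant library.

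Clustered protocadherins, cell adhesion proteins of neurons, lay in the window with the largest share of lower calls. On chromosome 10 from 20 to 25 Mb, 17 of 58 kept rows (29.3%) were lower in *rhs*, and 2 of 56 in *gsp*. Not all of these 17 were protocadherins, and *vamp2* was among them. In the protocadherin list itself 9 of 32 kept members were lower (28.1%, against 4.83% of all kept rows). The median over 268 windows of 5 Mb was 4.44% and the next highest 16.2%. *pcdh1g22* (chromosome 10, 21838817 to 22032151) had 2660 in *rhs* mutants and 7957 in siblings, against 3172 and 2764 in *gsp*. Here the *rhs* sibling was the library that stood apart, and against the *gsp* sibling the ratio of *pcdh1g22* was 1.04. *pcdh1g9* had 184 and 545, against 354 and 468, and was low against both siblings. These gene models overlap each other and share exons, so their reads cannot be assigned to 1 model with certainty, and 15 of 32 kept members of the list repeated the values of another row. With repeats left out the list median was -0.73, against -0.24 with them. *pcdh8*, an unclustered protocadherin (chromosome 9), had 151 and 395, against 1031 and 776. For higher calls the top window was chromosome 7 from 0 to 5 Mb, with 9 of 20 kept rows (45%) in *rhs* and 6 of 18 in *gsp*. The window median was 9.68% and the next highest 26.9%. No whole chromosome had a share of lower calls above 7.23% or of higher calls above 13.8%.

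The skeletal muscle list had medians of opposite sign in the 2 lines. Of 97 kept genes of contraction 89 were under the median transcript in *rhs*, with a median of -0.32. Past 1.5-fold, 12 were lower (12.4%, against 4.83% of all kept rows) and 1 was higher. In *gsp* 25 of 96 were higher and 1 lower, against 6.52% and 2.78% of all rows kept in *gsp*. The *gsp* median was 0.19. The siblings differed by a median of 0.02 over the list, but some members differed more. With the *gsp* sibling as control the *rhs* median was -0.35, with 23 of 96 lower and 3 higher. Only 4 of 96 were lower past 1.5-fold than both siblings, against 2.90% of all rows compared with both. Most of the single-gene calls thus depended on the control. *myhc4*, a fast myosin heavy chain (chromosome 5, 33859918 to 33871475), had 16602 in *rhs* mutants and 33730 in siblings, 1.77-fold lower (1.74 to 1.81). In *gsp* mutants it had 34066 and in siblings 18895, a ratio of 1.94. *myhz1.2*, in the same cluster, had 50356 and 94727, against 110620 and 64856. Against the *gsp* sibling the *rhs* mutant ratio was 0.951 for *myhc4* and 0.840 for *myhz1.2*. Both were within 1.5-fold, so the *rhs* calls of these genes depended on the control. Near-identical myosin genes share reads, so the split between them is uncertain. *ampd1*, the muscle adenosine monophosphate deaminase, overlapped no other row and had 4064 and 7798, against 15485 and 7671. Its ratio to the *gsp* sibling was 0.573, still past 1.5-fold.

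Other parts of the muscle cell were low in *rhs* too. *atp2a1l*, a sarcoplasmic reticulum calcium pump, had 11433 and 24975 in *rhs*, 1.91-fold lower (1.86 to 1.95), against 25368 and 24906 in *gsp*. *actc1b*, a sarcomeric actin, had 504242 and 763776, against 910660 and 694034. *mylz2*, the fast myosin light chain and the most abundant member, had 842853 and 1170246, against 960794 and 1094966, and was within 1.5-fold in both lines. The list took 6.74% of the *rhs* mutant total and 8.96% of the sibling total, against 10.7% and 8.52% in *gsp*. *tcap*, telethonin of the Z disc, ran against the rest with 3811 and 1032 in *rhs*. It had 617 and 62 in *gsp*. Among regulators *myod1* had 3604 and 4346 and *unc45b*, a myosin chaperone, 3259 and 4637, both within 1.5-fold. Of 32 kept regulators 4 were lower (12.5%) and 1 was higher (3.1%), against 4.83% and 10.1% of all kept rows. Heart genes were mixed, with 5 of 32 higher (15.6%) and 3 lower (9.4%), against 10.1% and 4.83% of all kept rows. The higher ones included *myh6* (1129 and 612), atrial myosin, and *nkx2.7* (583 and 321), a cardiac homeobox factor. *myl7*, the pan-cardiac light chain, had 4716 and 4787.

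Liver plasma protein genes were higher in *rhs*. Of 47 kept, 30 were higher (63.8%) and 1 lower, with a median of 0.68 against 0.14 in *gsp*, where 8 were higher. Past the fold in *rhs* and within it in *gsp* were 22. These included clotting genes. *fgb*, fibrinogen β, had 56706 in *rhs* mutants and 29056 in siblings, 2.24-fold higher (2.21 to 2.27), against 32732 and 26763. *f2*, prothrombin, had 16316 and 11552, against 10467 and 10787, and *plg*, plasminogen, 19591 and 13645, against 11801 and 10430. Another 8 members were higher past 1.5-fold in both mutants, among them *cfb*, *c3c* and *hamp1*. *cfb*, complement factor B (chromosome 21, 26810720 to 26825790), had 21699 and 7674, against 16183 and 6342. *c3c*, a complement C3, had 3430 and 1301, against 1881 and 614. *hamp1*, hepcidin, had 555 and 157, 4.07-fold higher (3.39 to 4.87), against 335 and 208.

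The most abundant plasma protein genes lay within 1.5-fold in *rhs*. *sepp1a*, selenoprotein P, had 226503 and 227875 in *rhs*, against 121291 and 174220 in *gsp*. *tfa*, transferrin, had 163818 and 142138, against 109355 and 149431. *rbp4*, a retinol carrier, had 68023 and 82680, against 45422 and 97634, a *gsp* ratio of 0.502, which was past 1.5-fold. Of the 47 kept members of the list, 44 were above the median transcript. Some liver genes under the minimum, chosen after their values were seen, ran the other way. *fabp10a*, a hepatocyte gene, had 9 in *rhs* mutants and 60 in siblings, against 156 and 252 in *gsp*. *gc*, the vitamin D carrier, had 15 and 60, against 98 and 160, and *uox*, urate oxidase, had 30 and 146, against 212 and 319. For these the *rhs* mutant had the lowest value of the 4 libraries, but the values are low and do not represent the list. *ttr*, transthyretin, had 28 and 7, against 15 and 11. The plasma protein list as a whole took its largest share of the total in the *rhs* mutant, 0.914%, against 0.714% in the *rhs* sibling and 0.609% and 0.677% in *gsp*. In which tissue the plasma protein transcripts were made was not tested.

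Genes of liver metabolism were higher for 10 of 52 (19.2%) and lower for 2, with a median of 0.24 against 0.03. *pck1*, the key enzyme of gluconeogenesis, had 15714 and 1219 in *rhs*, 14.8-fold higher (13.9 to 15.7), against 12970 and 2106 in *gsp*. *bhmt*, betaine-homocysteine methyltransferase and abundant in the yolk syncytial layer and liver, had 513652 and 343239, 1.72-fold higher (1.71 to 1.72), against 262423 and 289696. *prox1*, a homeobox factor of liver that also acts in retina and lens, was lower, with 2049 and 4289, against 3974 and 3635.

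Yolk and lipoprotein genes were higher in *rhs* for 18 of 46 (39.1%), with 1 lower and a median of 0.46, while the *gsp* median was -0.15. The list took 3.79% of the *rhs* mutant total, 2.77% of the *rhs* sibling total, and 2.55% and 2.89% in *gsp*. *apoa1b*, an apolipoprotein A-I and the most abundant member, had 940541 in *rhs* mutants and 646237 in siblings, 1.67-fold higher (1.66 to 1.67), against 630046 and 791552. *apobl*, an apolipoprotein B (chromosome 20, 31295686 to 31310798), had 276337 and 208328, against 153128 and 171531. *apoa1* had 842642 and 633112, against 441350 and 575951. For each of these the *rhs* mutant had the highest and the *gsp* mutant the lowest estimated count of the 4 libraries. These counts are not scaled to depth. For *apoa1b* the *gsp* mutant count was close to that of the *rhs* sibling, whose library total was larger (118680429 against 106188690). Relative to the total, the *rhs* sibling was therefore the lowest library for *apoa1b*. *mid1ip1a*, a regulator of lipid synthesis, had 17491 and 7389, against 11491 and 9070, and *plin2*, a lipid droplet coat protein, 932 and 425, against 626 and 400. *ctsl1a*, a cathepsin, was higher in both lines, with 303762 and 181174, against 152871 and 90382. *cd36*, a fatty acid receptor, was the 1 lower member, with 143 and 252.

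**Figure D5:**
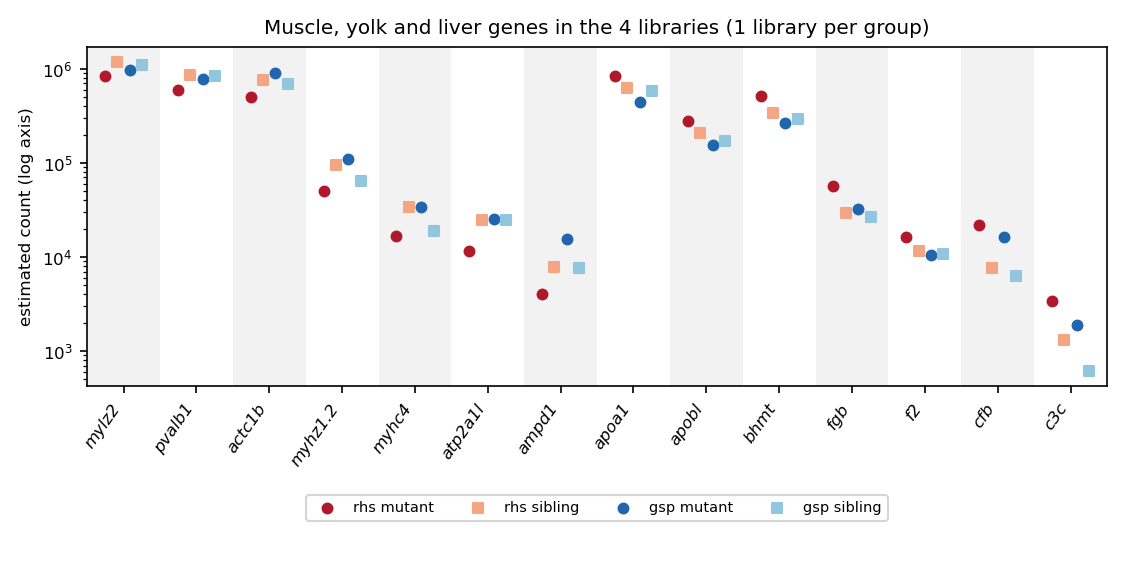
Estimated counts (log axis) of 14 muscle, yolk and liver genes in the 4 libraries, 1 point per library. For *myhz1.2*, *myhc4* and *ampd1* the *rhs* mutant is the lowest library and the *gsp* mutant the highest, and for *apoa1*, *apobl* and *bhmt* the order is the reverse.

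Red blood cell genes were higher for 4 of 38 (10.5%), close to the 10.1% of all kept rows, and lower for 0, with a median of 0.26 in *rhs* and -0.19 in *gsp*. *hbae3*, an embryonic α globin, had 449897 and 403136, against 297447 and 364478. *klf3* had 14348 and 9353 and was 1.76-fold higher (1.71 to 1.81), against 8703 and 9009. Hatching gland genes were higher for 4 of 11 (36.4%, against 10.1% of all kept rows). Their median was 0.49, but it was -0.05 against the *gsp* sibling. *he1a*, a hatching enzyme, had 42921 and 26530, against 47965 and 50207.

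Epidermal genes, the study's main subject, were higher for 40 of 71 (56.3%) with a median of 0.74, against 0.27 in *gsp*. The siblings differed by a median of 0.26 (*gsp* over *rhs*) for this list. With the *gsp* sibling as control the *rhs* median was 0.33, with 31 of 71 higher and 11 lower. *cldnb*, a claudin of tight junctions, had 65058 and 9747, against 42361 and 10294. The abundant keratins did not share this size. *krt4* had 3332159 and 2883598 in *rhs*, 1.32-fold higher (1.32 to 1.33), against 1961954 and 3665460 in *gsp*, a *gsp* ratio of 0.577. Against the *gsp* sibling the *rhs* mutant had a *krt4* ratio of 0.984, so its direction depended on the control. Ionocyte genes were higher for 13 of 30 (43.3%) with a median of 0.55, against 0.25. Their *rhs* median with the *gsp* sibling as control was 0.32, with 8 higher and 1 lower. *atp1b1b* and *atp1a1a.2*, subunits of the sodium pump, were higher in *rhs* alone. *atp1b1b* had 28354 and 15995, 2.03-fold higher (1.99 to 2.07), against 13822 and 16273, and *atp1a1a.2* had 31825 and 18388, against 14875 and 15882.

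Both mutants are known for defects of intracellular transport. The endocytosis and membrane traffic list was near the background, with 15 of 143 higher (10.5%), 7 lower (4.90%) and a median of 0.08. Its higher members included *sec23b*, a coat protein of vesicles leaving the endoplasmic reticulum, with 16771 and 8246, against 13135 and 11690, and *ldlr*, the LDL receptor, with 736 and 267, against 705 and 305. Its lower ones included *rab3ab* and *rab6b*, neuronal Rab GTPases, with 154 and 318 for *rab3ab* and 880 and 1723 for *rab6b*. Genes of oxidative phosphorylation (0 of 78 past the fold) and ribosomal proteins (1 of 79 lower, 0 higher) had medians of -0.02 and 0.14. The list of integrated stress response genes had 8 of 49 higher (16.3%, against 10.1% of all kept rows) with a median of 0.19. *trib3*, a target of that response, had 13659 and 5635, against 11371 and 5426. Of 34 p53 and cell death genes 11 were higher (32.4%, against 10.1% of all kept rows), with a median of 0.29. *casp6l1*, a caspase, had 841 and 352, and *bik*, a pro-death BH3 protein, 653 and 282. Both were also higher past 1.5-fold in *gsp*.

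Among transcripts with a gene name, 109 were past 2-fold in *rhs* and within 1.5-fold in *gsp*, 66 higher and 43 lower. The largest difference on the higher side was *rn7sk* (chromosome 13, 697630 to 697951), the 7SK small nuclear RNA that binds the elongation factor P-TEFb. It had 3682 in *rhs* mutants and 216 in siblings, 19.5-fold higher (17 to 22.5), against 292 and 340 in *gsp*. The RNA has no poly(A) tail and was the 1 small nuclear RNA among the kept rows. Others were *klf4a*, a Krüppel-like factor (1196 and 458, against 190 and 237), *ifitm1*, an interferon-induced membrane protein (424 and 128, against 132 and 113), *nr4a3*, an orphan nuclear receptor (2719 and 962, against 1108 and 942), and *elovl6l*, a fatty acid elongase (5782 and 2937, against 3192 and 3278). All 5 of these were also higher past 1.5-fold against the *gsp* sibling. *nos1*, neuronal nitric oxide synthase, had 4519 and 2390, against 3715 and 4209, and its ratio to the *gsp* sibling was 1.16. On the lower side, besides the retinal genes, were *pdzk1ip1l* (142 and 865, against 270 and 231) and *hspb9*, a small heat shock protein (1455 and 5236, against 1560 and 1755). For both the *rhs* sibling was the library that stood apart, and the ratio to the *gsp* sibling was 0.897 for *hspb9* and 0.663, still past 1.5-fold, for *pdzk1ip1l*.

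In all, 35 transcripts (0.257% of 13633) were called in opposite directions in the 2 lines, 16 higher and 19 lower in *rhs*. Those with a gene name numbered 20. *cyp2aa8*, a cytochrome P450, had 11676 and 6075 in *rhs*, 2.2-fold higher (2.14 to 2.27), and 764 and 2857 in *gsp*, a ratio of 0.289. *dao.1*, a D-amino acid oxidase, had 9983 and 6213, against 1845 and 4777. On the other side stood the muscle genes given above and *stc1l*, a stanniocalcin of calcium balance, with 349 and 665, against 1270 and 524.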

How the data were processed

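RNA of pooled whole embryos was sequenced by the authors in 4 libraries, 1 per group. Per the paper's methods reads were trimmed, aligned with TopHat and turned into a value per transcript with DEGseq; the submitters' processing notes name danRer7. The deposited columns headed raw, which the paper calls RPKM, were treated as estimated counts, since they show no division by length and are floored at 1. The authors also deposited log2 normalized columns, which are log2 values shifted by 1 constant per library and centred on each row, and tables of their own folds, not used here. Column totals are the only measure of depth.

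Rows with at least 100 in both libraries of a line were kept, and log2 ratios of mutant to sibling were centred on their median. Calls used 1.5-fold. Intervals were computed on values rounded to whole counts; PCR copies are not independent molecules. Of the symbols in 32 lists, 1490 matched the table's symbols, 32 its aliases and 427 RefSeq symbols, and 161 found no row. The members and lists were chosen with earlier results of these data known. Named genes were the 15 highest and 15 lowest with a gene name, the 12 at each end of the difference between lines, up to 4 per direction and the 3 most abundant per list, up to 5 per direction with opposite calls, and rows at the floor in 1 library. Others, such as *rho*, *nr2e3*, *pde6g*, *atoh7*, *aanat2*, *sox2*, *th*, *slc17a6a*, *vamp2*, *actc1b*, *myod1*, *unc45b*, *myl7*, *fgb*, *f2*, *plg*, *apobl*, *ctsl1a*, *atp1a1a.2*, *pmela*, *rpe65a* and the rows under 100, were chosen after their values were seen. Some genes that the rule names are not reported here. Alternatives covered other minimums, pseudocounts, scalings (TMM by edgeR 4.0.16 in R 4.3.3), the other line's sibling, 2-fold and repeated rows; counting and centring were tested on simulated data. Python 3.11.15 with numpy 2.4.6, pandas 2.3.3 and scipy 1.17.1 was used.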

Additional observations from a re-analysis of the deposited data

Results flagged for a closer look

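Among transcripts with a gene name, 10 chosen by the naming rule were past 1.5-fold in opposite directions in the 2 lines. The difference was not tested, since each group had 1 library. Higher in *rhs* and lower in *gsp*, on the log2 scale, were *cyp2aa8* (1.14 and -1.79), *cyp2aa9* (0.93 and -1.43), *rgl3a* (0.92 and -0.99), *dao.1* (0.88 and -1.26) and *hsp47* (0.76 and -0.83). Lower in *rhs* and higher in *gsp* were *myhc4* (-0.83 and 0.96), *ampd1* (-0.74 and 1.12), *stc1l* (-0.73 and 1.39), *pcdh1a3* (-0.72 and 1.12) and *myhz1.2* (-0.71 and 0.88). With the *gsp* sibling as control, the *rhs* ratios of *cyp2aa9*, *myhc4*, *stc1l*, *pcdh1a3* and *myhz1.2* were within 1.5-fold. Those of *rgl3a* (0.075) and *hsp47* (0.492) were past it in the other direction. Only *cyp2aa8*, *dao.1* and *ampd1* kept their *rhs* call.

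Rows outside the comparison, because the *rhs* sibling was at the floor of 1, included *lepb*, a leptin. It was at 174 in *rhs* mutants and 14 in *gsp* mutants, and the *gsp* sibling was also at 1. LOC797886 had 858 in the *rhs* mutant and 1086 in the *gsp* mutant with both siblings at 1, and LOC100331709 had 103 in the *rhs* mutant alone. In the other direction, LOC100332114 had 263 in the *rhs* sibling alone. Above the floor but under the minimum, *gucy1b3*, a guanylate cyclase subunit, had 39 in *rhs* mutants and 3976 in siblings, with both *gsp* libraries at 1. *il1b*, interleukin 1β, had 2890 in *rhs* mutants and 16 in siblings, against 3351 and 37 in *gsp*.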

How the results depend on the processing

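No paired analysis was possible because each group has 1 library. The main counts were 1430 higher and 686 lower in *rhs*, 710 higher and 581 lower in *rhs* within the fold in *gsp*, and 35 opposite. A minimum of 500 gave 364 lower, 315 lower in *rhs* within the fold in *gsp* and 16 opposite. With no minimum above the floor these were 1284, 921 and 171, and with a pseudocount of 100 they were 423, 373 and 19. Unscaled ratios gave 904 higher and 1685 lower, with 367 and 1451 within the fold in *gsp*. Division by the library total gave 1276 lower, with 402 higher and 1109 lower within the fold in *gsp*. With the other line's sibling as control 1814 were lower and 1632 opposite. At 2-fold, 602 were higher and 81 lower, with 283 and 72 within the fold in *gsp* and 1 opposite. Among the named genes past 1.5-fold, the other line's sibling as control changed the sign of *pcdh1g22* (0.059), *he1a* (-0.11), *rgl3a* (-3.74), *hsp47* (-1.02) and *pcdh1a3* (0.50) on the log2 scale, and some genes within 1.5-fold, such as *krt4*, changed sign too. The medians of the neuron, synapse, photoreceptor, inner retina, lens, skeletal muscle, liver, yolk, red blood cell and epidermis lists kept their sign under all 11 alternatives that can move a median, of which leaving out repeated rows was chosen after seeing the data. The 2-fold threshold and the authors' normalized columns cannot move one. On unscaled ratios the medians of the heart (-0.12), cell cycle (-0.07), integrated stress response (-0.01), endocytosis (-0.12) and ribosomal (-0.05) lists were below 0. With 0 residual degrees of freedom, variation between clutches was not measured, and the causes of these shifts were not tested.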
